A study of Mus musculus with 23 samples.

Results

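The genes described here belong to 1 signaling route: the Ras GTPases *Hras* and *Nras*, the ErbB receptors *Egfr*, *Erbb2* and *Erbb3*, the hepatocyte growth factor (HGF) receptor *Met*, and the feedback genes *Dusp6*, *Spry2* and *Spry4*. They were taken by symbol, which gave 9 of the 18512 gene symbols in the count files. All 9 had enough counts to be tested, as did 12195 symbols in all.

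The RNA came from the head of the pancreas of C57BL/6 mice of both sexes. The methods give an age of 6 to 8 weeks for the induction of injury, and the age at tissue collection is not stated. The baseline (non-injured) group had 8 mice, 4 female and 4 male. The day 7 post-injury group also had 4 females and 4 males, and the day 14 post-injury group had 3 females and 4 males. Post-injury mice had received caerulein, a cholecystokinin analogue that overstimulates acinar cells and so injures the pancreas, at 50 µg/kg per injection, with 8 hourly injections a day on 2 days in a row. Days post-injury were counted from the day after the last injection. The labels name no transgene or deleted allele in any group, and whether the baseline mice were given a vehicle is not stated in the sources used here. Each mouse gave 1 library of ribosomal RNA-depleted total RNA, so that the values are those of whole tissue.

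Receptor tyrosine kinases of the ErbB family and Met bind growth factors at the cell surface and, through adaptor proteins and nucleotide exchange factors, load Ras proteins with GTP. GTP-bound Ras starts the Raf, MEK and ERK kinase cascade, and ERK in turn raises the transcription of inhibitors that act back on the route, among them the ERK phosphatase Dusp6 and the Sprouty proteins. In the pancreas the route is known for its part in acinar-to-ductal metaplasia, in regrowth after injury and in ductal cancer. Receptor and Ras activity is set largely by ligand, nucleotide and phosphorylation state, none of which is measured by RNA-seq.

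Total counts ranged from 7059890 to 9567446 per mouse. The 20 most abundant transcripts held on average 69.4% of the counts at baseline, 60.3% at day 7 and 65.0% at day 14, so the levels below are CPM with library sizes corrected by TMM factors (0.770 to 1.4), which set the libraries on a common scale. With total counts as the scale in place of TMM, the median log2 fold change of all 12195 genes was 0.475 at day 7 and 0.219 at day 14 against baseline, and -0.255 at day 14 against day 7; with TMM these medians were 0.02, 0.01 and -0.01. The 14 acinar marker genes summed to between 454189 and 669775 CPM in baseline mice, between 275205 and 413292 in day 7 mice and between 429123 and 503401 in day 14 mice. In bulk tissue, fewer cells of a type and less RNA per cell cannot be told apart.

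Of the 9 genes, 1 passed the test at day 7 against baseline, at an adjusted p of at most 0.05 in edgeR: *Spry4*, which fell. Among all genes tested 18.6% passed, 8.86% as higher and 9.7% as lower. *Spry4* was also a DEG, with a fold change of at least 1.5, as were 5.13% of all genes. A further 2 genes, *Nras* and *Dusp6*, had an unadjusted p under 0.05 but did not pass; with *Spry4* these were 3 of the 9, where 32.2% of all genes were under 0.05. In all, 7 of the 9 genes had a fold change above 1 and 2 below it, with a median log2 fold change of 0.105, where the median over all genes was 0.02. With total count scaling 8 of the 9 passed, where 76.6% of all genes did, with the mapping rate as a covariate 0 passed, where 1.25% of all genes did, and with 1 mouse left out 0 to 3 passed.

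At day 14 against baseline 0 of the 9 genes passed in edgeR, where 1.57% of all genes did. The smallest adjusted p was 0.350, that of *Nras*, which was also the 1 gene of the 9 with an unadjusted p under 0.05 (13.3% of all genes), and DESeq2 likewise called 0 of them. At day 14 against day 7, 0 of the 9 genes passed in edgeR, where 1.29% of all genes did, and 1 had an unadjusted p under 0.05 (14.1% of all genes): *Spry4*, at an adjusted p of 0.0561. DESeq2 called 0 of them in that comparison, but its independent filtering gave *Spry4* no adjusted p there. Both comparisons against baseline share the same 8 baseline mice.

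**Figure D1:**
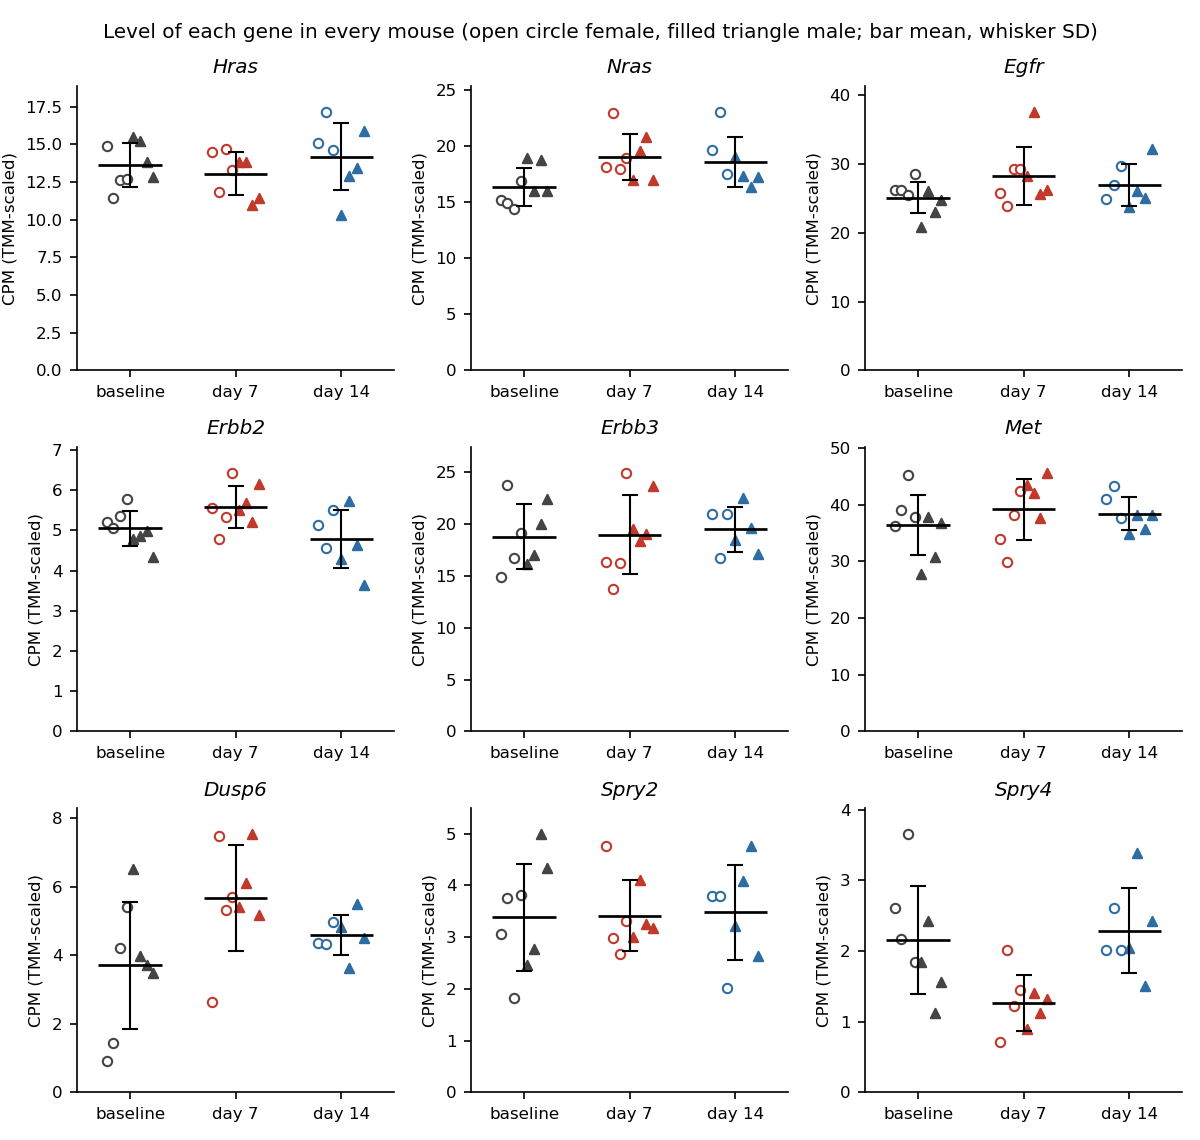
CPM (TMM-scaled, linear axis from 0) of each of the 9 genes in every mouse at baseline (n = 8), day 7 (n = 8) and day 14 (n = 7); open circles are females, filled triangles males, the bar is the mean and the whisker the SD. The groups overlap in every panel, and in the *Spry4* panel the day 7 mice reach 2.02 CPM at most, with 7 of 8 below the lowest day 14 mouse.

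*Hras* and *Nras* encode closely related membrane-bound GTPases that pass the signal of the receptors to the Raf kinases. *Hras* lies at chr7:141189105-141194005 on the minus strand and *Nras* at chr3:103058285-103067914 on the plus strand (GRCm38, GENCODE vM21). Their coding sequences have the same length, 567 bases without the stop codon, and are 75.3% identical. To show how far reads of 75 bases can tell the genes apart, the 75-base stretch in which they are most alike (coding bases 286 to 360, with 8 different bases) and the one in which they are least alike (coding bases 480 to 554, with 38 different bases) are printed below, 5′ to 3′ in the sense of the gene, with the bases that differ in capitals. The stretches come from the GENCODE transcripts. The most alike stretch crosses an intron, within chr7:141192221-141192446 in *Hras* and chr3:103060375-103062443 in *Nras*, and the least alike one lies at chr7:141191364-141191438 and chr3:103063359-103063433.
Hras, most alike: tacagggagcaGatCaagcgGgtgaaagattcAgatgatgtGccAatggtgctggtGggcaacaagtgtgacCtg
Nras, most alike: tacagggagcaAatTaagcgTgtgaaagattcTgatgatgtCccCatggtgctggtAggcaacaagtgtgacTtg
Hras, least alike: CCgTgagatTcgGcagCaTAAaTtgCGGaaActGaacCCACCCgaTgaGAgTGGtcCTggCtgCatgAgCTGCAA
Nras, least alike: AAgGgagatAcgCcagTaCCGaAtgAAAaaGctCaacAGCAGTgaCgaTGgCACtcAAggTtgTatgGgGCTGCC
Even the most alike stretch thus differed at 8 positions. Of the 3169 windows of 75 bases in the *Hras* transcripts and the 4880 in those of *Nras*, 0 occurred in a transcript of another gene, and the same held for the other 7 genes.

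The level of *Hras* lay between 11.4 and 15.5 CPM at baseline (median 13.4), between 11 and 14.7 at day 7 (median 13.5) and between 10.3 and 17.2 at day 14 (median 14.7). The groups overlapped almost fully, with 1 day 7 mouse below every baseline mouse and with 2 day 14 mice above and 1 below. Its log2 fold change was -0.07 at day 7 (95% interval -0.26 to 0.12, adjusted p = 0.655) and 0.06 at day 14 (-0.14 to 0.26, adjusted p = 0.871) against baseline. These intervals exclude a 1.5-fold change in either direction. With total count scaling the day 7 value turned to 0.38 (adjusted p = 0.00100), which was still -0.09 relative to the median of all genes under that scaling.

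*Nras* was found at 14.4 to 19 CPM in the baseline mice (median 16), 16.9 to 22.9 CPM at day 7 (median 18.5) and 16.3 to 23 CPM at day 14 (median 17.5). The groups overlapped, although 3 of 8 day 7 mice and 3 of 7 day 14 mice were above every baseline mouse. The log2 fold change of 0.22 at day 7 did not pass (95% interval 0.05 to 0.38, adjusted p = 0.0667), nor did that of 0.18 at day 14 (0.01 to 0.36, adjusted p = 0.350). The day 7 value passed without baseline mouse 5, at 0.26 (adjusted p = 0.0302), without baseline mouse 7, at 0.25 (adjusted p = 0.0440), and with total count scaling that left out the 20 most abundant genes, at 0.29 (adjusted p = 0.0259), whereas it was -0.01 in a fit that held the mapping rate beside sex.

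The ratio of the 2 Ras genes was formed within each library, where it does not depend on the scale. The log2 ratio of *Hras* to *Nras* counts averaged -0.26 in the 8 baseline mice (SD 0.15), -0.54 in the 8 day 7 mice (SD 0.26) and -0.39 in the 7 day 14 mice (SD 0.24). The lowest values, -0.95 and -0.92, were those of 2 day 7 mice, followed by -0.88 in a day 14 mouse, and the highest, -0.03, was that of a baseline mouse. The day 7 ratio was 0.28 lower on the log2 scale than the baseline one, with p = 0.0180 in an exact two-sided permutation test over the 12870 splits of the mice and 0.0811 after adjustment over 9 tests, so it did not pass. Without baseline mouse 7 it did (-0.30, adjusted p = 0.0434, exact permutation test). Day 14 did not pass against baseline (adjusted p = 0.433, exact permutation test) or against day 7 (adjusted p = 0.433).

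**Figure D2:**
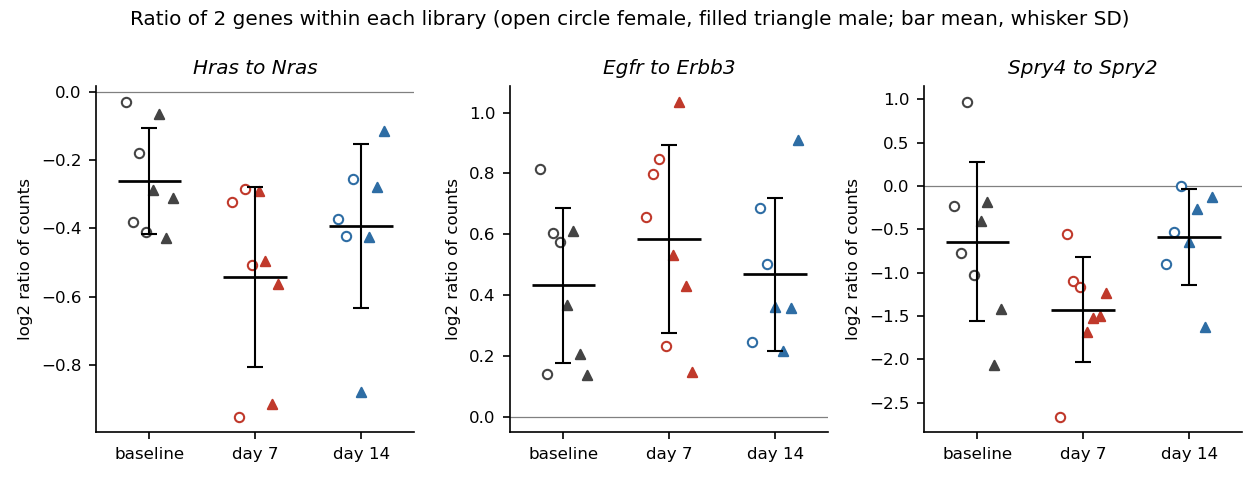
The log2 ratio of the counts of 2 genes within each library (vertical axes, different ranges), for *Hras* to *Nras*, *Egfr* to *Erbb3* and *Spry4* to *Spry2*, at baseline (n = 8), day 7 (n = 8) and day 14 (n = 7); open circles are females, filled triangles males, bars means and whiskers SDs. The groups overlap in each panel, and the mean of *Spry4* to *Spry2* is -1.43 at day 7 against -0.64 at baseline and -0.58 at day 14.

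None of the 4 receptor genes passed in any comparison of time points in edgeR, with DESeq2 or at an unadjusted p under 0.05. *Met*, the receptor of HGF at chr6:17463800-17573980 on the plus strand, had the highest level per length. In CPM, *Met* ranged from 27.8 to 45.3 at baseline (median 37.3), from 29.9 to 45.6 at day 7 (median 40.2) and from 34.9 to 43.2 at day 14 (median 38.1). All but 1 of the post-injury mice were within the baseline range. Its log2 fold change against baseline was 0.11 at day 7 (95% interval -0.07 to 0.28, adjusted p = 0.426) and 0.08 at day 14 (-0.11 to 0.27, adjusted p = 0.792). With total count scaling all 4 receptor genes passed at day 7, at 0.46 to 0.62, or at -0.02 to 0.15 relative to the median of all genes under that scaling.

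*Egfr*, the receptor of EGF and the related ligands HB-EGF, betacellulin and TGF-alpha, lies at chr11:16752203-16918158 on the plus strand, where the annotated antisense transcript *Egfros* overlaps it. It was measured at 20.8 to 28.5 CPM at baseline (median 25.7), at 23.9 to 37.6 CPM at day 7 (median 27.2) and at 23.7 to 32.2 CPM at day 14 (median 26.1). The highest level, 37.6 CPM, was that of mouse 14, a day 7 male, and 3 of 8 day 7 mice were above every baseline mouse. The log2 fold change of 0.17 at day 7 did not pass (95% interval -0.01 to 0.34, adjusted p = 0.169) and was 0.09 without mouse 14, but passed at 0.25 (adjusted p = 0.0352) with a total count that left out the 20 most abundant genes. At day 14 it was 0.10 (-0.08 to 0.29, adjusted p = 0.687).

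*Erbb2*, the receptor without a known ligand that pairs with the other ErbB receptors, lies at chr11:98412470-98437716 on the plus strand and is overlapped on the other strand by the protein-coding gene *Mien1*. The libraries were stranded, but the strand setting of the count is not given in the sources used here. *Erbb2* was at 4.35 to 5.79 CPM at baseline (median 5.03), 4.79 to 6.43 CPM at day 7 (median 5.53) and 3.64 to 5.73 CPM at day 14 (median 4.64). At day 7, 2 mice were above every baseline mouse, and at day 14, 2 mice were below. Against baseline the log2 fold changes were 0.14 (95% interval -0.10 to 0.39, adjusted p = 0.429) at day 7 and -0.07 (-0.29 to 0.15, adjusted p = 0.854) at day 14. The difference between day 14 and day 7, -0.22 on the log2 scale, also did not pass (adjusted p = 0.358).

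*Erbb3*, which has a weak kinase of its own and signals through its partners after binding neuregulins, lies at chr10:128567523-128589652 on the minus strand. Its level ran from 14.9 to 23.7 CPM at baseline (median 18), 13.8 to 24.9 CPM at day 7 (median 18.7) and 16.7 to 22.5 CPM at day 14 (median 19.6). Only 2 post-injury mice were outside the baseline range, both at day 7, 1 above and 1 below. The log2 fold change was 0.01 at day 7 (95% interval -0.22 to 0.24, adjusted p = 0.956) and 0.05 at day 14 (-0.19 to 0.29, adjusted p = 0.929). Within libraries, the mean log2 ratio of *Egfr* to *Erbb3* was 0.43 at baseline (SD 0.25), 0.58 at day 7 (SD 0.31) and 0.47 at day 14 (SD 0.25), and no pair of time points passed (smallest adjusted p = 0.433, exact permutation test).

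Among the feedback genes, *Spry4* had the largest difference between time points. Sprouty proteins are inhibitors of receptor tyrosine kinase signaling upstream of ERK. *Spry4* is on the minus strand of chromosome 18 and was the least abundant of the 9 genes, with 7 to 29 counts per mouse. It was at 1.13, 1.56, 1.85, 1.85, 2.17, 2.43, 2.60 and 3.66 CPM in the 8 baseline mice. At day 7 the 8 mice had 0.71, 0.90, 1.12, 1.22, 1.32, 1.4, 1.45 and 2.02 CPM. At day 14 the 7 mice had 1.5, 2.01, 2.02, 2.04, 2.43, 2.61 and 3.39 CPM. The day 7 mice were thus low as a group, with 3 of 8 below every baseline mouse and 7 of 8 below every day 14 mouse, but the ranges overlapped.

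At day 7, *Spry4* fell by 0.74 on the log2 scale (SE 0.23, 95% interval -1.21 to -0.27, adjusted p = 0.0230), which is 0.599 of the baseline level. In day 14 against baseline its log2 fold change was 0.12 (SE 0.23, -0.35 to 0.59, adjusted p = 0.904), and in day 14 against day 7 it was 0.86 (SE 0.23, 0.38 to 1.33, adjusted p = 0.0561). The day 7 call was lost without baseline mouse 3, the highest of its group (-0.60, adjusted p = 0.0704), and the day 14 against day 7 value passed without mouse 10, the highest of the day 7 mice (0.97, adjusted p = 0.0304). With the mapping rate as a covariate the day 7 value was -0.75 and did not pass (adjusted p = 0.356), and with total count scaling it was -0.27 (adjusted p = 0.298), or -0.75 relative to the median of all genes.

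*Spry2*, the other Sprouty gene of the set, lies at chr14:105891947-105896819 on the minus strand and passed in no comparison of time points. The baseline mice had 1.83 to 5.0 CPM of *Spry2* (median 3.41), the day 7 mice 2.67 to 4.75 (median 3.22) and the day 14 mice 2.02 to 4.76 (median 3.8). No post-injury mouse was outside the baseline range. The log2 fold change was 0.02 at day 7 (95% interval -0.36 to 0.41, adjusted p = 0.952) and 0.03 at day 14 (-0.37 to 0.43, adjusted p = 0.977). The difference between the genes was tested as a ratio within libraries: the log2 ratio of *Spry4* to *Spry2* averaged -0.64 at baseline (SD 0.91), -1.43 at day 7 (SD 0.61) and -0.58 at day 14 (SD 0.55). By exact two-sided permutation tests, day 7 was -0.79 from baseline (p = 0.0597, adjusted p = 0.179) and day 14 was 0.84 from day 7 (p = 0.0135, adjusted p = 0.0811), so that a different response of the 2 Sprouty genes did not pass after adjustment. The former passed without baseline mouse 7 (-0.99, adjusted p = 0.0434), and the latter without day 14 mouse 23 (1.02, adjusted p = 0.0210), in the same exact tests.

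*Dusp6*, a phosphatase that removes the activating phosphates of ERK, lies at chr10:99263231-99267489 on the plus strand. In the baseline mice it was at 0.92, 1.45, 3.48, 3.71, 3.99, 4.22, 5.42 and 6.52 CPM. In the day 7 mice it was at 2.63, 5.17, 5.34, 5.41, 5.71, 6.13, 7.48 and 7.55 CPM, and in the day 14 mice between 3.63 and 5.52 CPM (median 4.52). The spread at baseline was wide, with mice 1 and 2, both female, far below the others, and 2 of 8 day 7 mice were above every baseline mouse. The log2 fold change of 0.61 at day 7 did not pass (SE 0.25, 95% interval 0.09 to 1.12, adjusted p = 0.0913), and that of 0.29 at day 14 did not pass either (SE 0.26, -0.25 to 0.83, adjusted p = 0.712). It passed at day 7 without baseline mouse 5, the highest of its group, at 0.76 (adjusted p = 0.0325), without baseline mouse 4, at 0.75 (adjusted p = 0.0399), and without day 7 mouse 9, at 0.70 (adjusted p = 0.0402), and was 0.46 without baseline mouse 1.

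**Figure D3:**
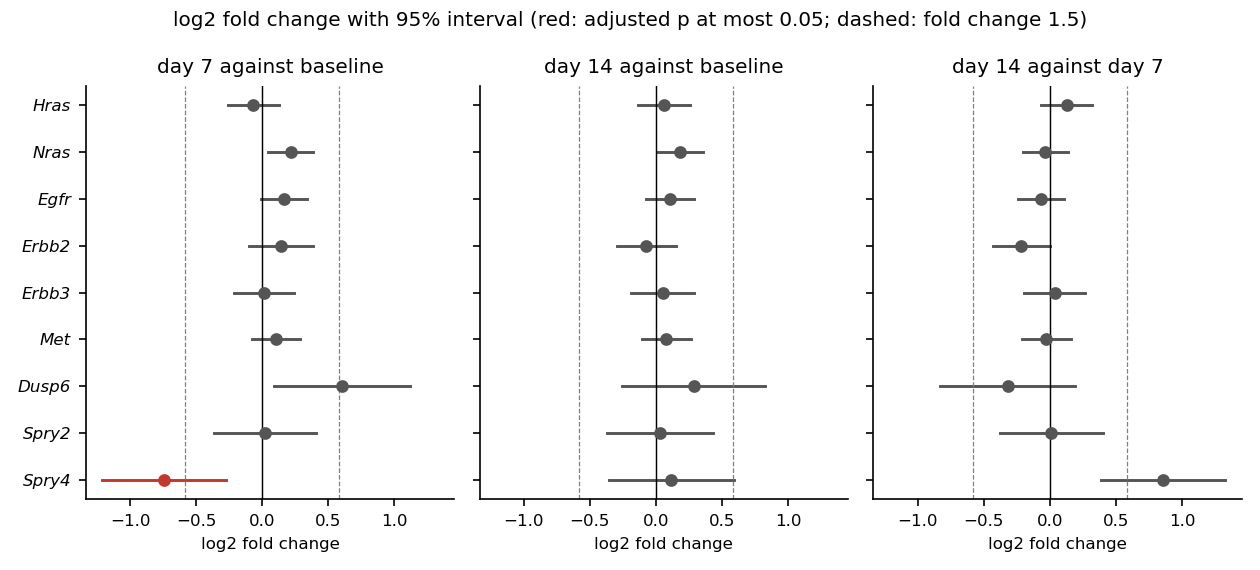
Log2 fold change (dot) and 95% interval (line) of the 9 genes in 3 comparisons of time points, from 1 fit of 23 mice with sex as a covariate; the solid vertical line is at 0, the dashed lines mark a fold change of 1.5, and red marks an adjusted p of at most 0.05. The 1 red dot is *Spry4* at day 7, at -0.74, and the intervals of the Ras and receptor genes are narrow beside those of the feedback genes.

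The 9 genes differed in level and in spread. Per kilobase of exon, the baseline medians were 4.86 CPM per kb for *Met*, 3.58 for *Hras*, 3.00 for *Erbb3*, 3.00 for *Nras*, 2.27 for *Egfr*, 1.64 for *Spry2*, 1.23 for *Dusp6*, 0.965 for *Erbb2* and 0.423 for *Spry4*. Between neighbours in this order, the ranges of the 8 baseline mice did not overlap between *Nras* and *Egfr* and between *Erbb2* and *Spry4*, while the other 6 neighbouring pairs overlapped. *Erbb2* thus had the lowest level per length of the 4 receptors. The coefficient of variation between baseline mice was highest for *Dusp6* at 50.0%, where counting error alone would give 19.6%. *Erbb2* had 8.42%, below the 17% that counting error alone would give, so no spread between mice beyond counting error was measurable for it. For *Dusp6* it was 27.2% at day 7 and 12.9% at day 14, and at day 14 counting error alone would give 15.6%. *Spry4* had 35.6% at baseline, where counting error alone would give 26%.

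**Figure D4:**
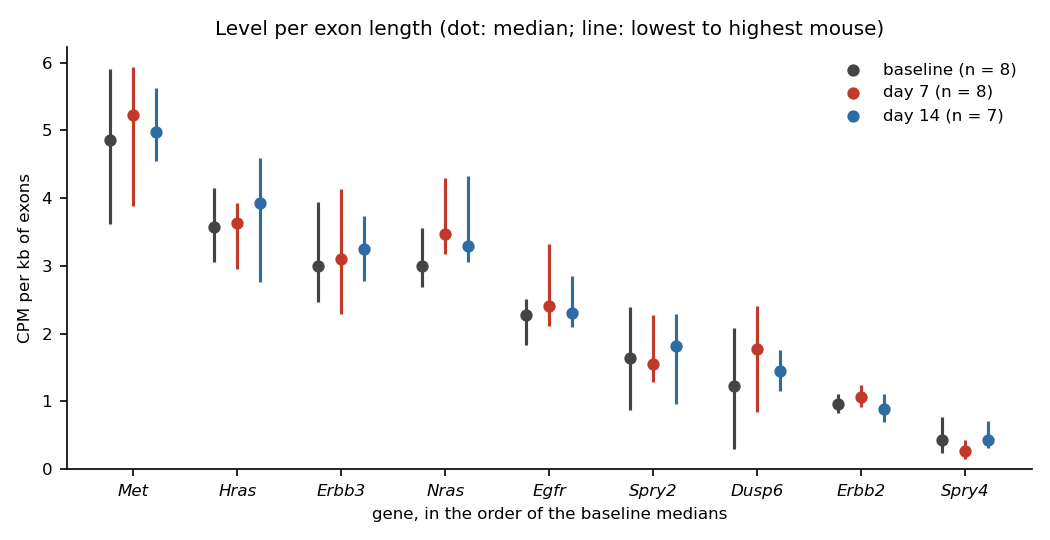
CPM per kilobase of annotated exon of the 9 genes, in the order of their baseline medians, at baseline, day 7 and day 14; dots are medians and lines run from the lowest to the highest mouse. *Met* is highest with a baseline median of 4.86 and *Spry4* lowest with 0.423, and both hold at each time point.

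Over the 23 mice, and over 7921 genes with a mean of at least 50 counts, the log2 CPM of *Hras* was most like that of *Slc7a1* (Pearson r = 0.80), *Hyou1* (0.77) and *Vkorc1l1* (0.77). *Nras* was most like *Sowahc* (r = 0.82), *Tpm4* (0.79) and *Rtn4* (0.78). For *Spry4*, among 7922 genes, these were *Ccnd3* (r = 0.70), *Rps19* (0.69) and *Crat* (0.68). With each group's mean removed the values were 0.79 to 0.80 for the genes of *Hras*, 0.67 to 0.77 for those of *Nras* and 0.46 to 0.62 for those of *Spry4*. The points of such a correlation share a library and its scale, and the genes were picked as the highest, so they are given as a description only. Within groups, r between 2 of the 9 genes ran from -0.52 for *Spry2* with *Spry4* to 0.53 for *Egfr* with *Met*.

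The other genes of the route were followed in 9 lists of ligands, activators, adaptors, kinases and inhibitors. They held 115 genes beside the 9, of which 96 were tested. At day 7, 13 of the 96 rose and 11 fell, 25.0% in all, where 18.6% of all genes passed. The median log2 fold change of the 96 was 0.07. The medians of the lists were 0.38 for the ErbB ligands, -0.07 for the HGF and Met genes, 0.17 for the sheddases, -0.06 for the adaptors and exchange factors, 0.11 for the RasGAPs, 0.04 for the other Ras-family GTPases, -0.02 for the kinases and scaffolds, 0.09 for the attenuators and 0.43 for the ERK-responsive transcripts, beside 0.02 for all genes. At day 14 against baseline, 1 of 96 passed (1.04%, where 1.57% of all genes did), and 0 passed at day 14 against day 7 in edgeR, with a smallest adjusted p of 0.0561. All 13 that rose were also above 0 with the other scalings tried, whereas 10 of the 11 that fell were above 0 with total count scaling, all 11 staying below the median of all genes there. With the mapping rate as a covariate, 1 of the 96 passed at day 7, *Plau*. Genes are named below mainly for a small adjusted p, which favours groups that hardly overlap. The share of all genes with groups so separated was not determined.

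Of 11 ErbB ligands, 4 were tested, and at day 7 of these 2 rose and 1 fell. *Egf*, the most abundant of them, averaged 147 CPM in the 8 baseline mice (SD 11.4), 109 CPM in the 8 day 7 mice (SD 16.5) and 127 CPM in the 7 day 14 mice (SD 11.1), with 7 of 8 day 7 mice below every baseline mouse. It fell by 0.43 on the log2 scale (SE 0.08, adjusted p = 3.41e-04), which turned to 0.02 with total count scaling. *Hbegf* rose from 1.03 CPM (SD 0.21) to 1.73 CPM (SD 0.60), a log2 fold change of 0.73 (adjusted p = 0.0250), and *Btc*, which encodes betacellulin, from 2.39 CPM (SD 0.60) to 3.37 CPM (SD 0.69), a log2 fold change of 0.50 (adjusted p = 0.0320). Neither call was made by DESeq2 (adjusted p = 0.0581 for *Hbegf* and 0.0727 for *Btc*), and that of *Btc* was also lost without the filter on low counts (adjusted p = 0.0506). *Hbegf* was not tested with a mean of at least 20 counts or with only the mice compared. *Tgfa* did not pass (0.26, adjusted p = 0.218). *Areg* and *Ereg* had 2 counts each in all 23 mice together, too few to be tested, and this depth could not show a difference in either.

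Of a list of 10 genes around *Met*, 9 were tested, and 2 rose and 1 fell at day 7. Beside *Hgf* and proteases that activate HGF, the list held inhibitors of such proteases and the related genes *Mst1* and *Mst1r*. *Hgf*, its ligand, averaged 0.48 CPM in the 8 baseline mice (SD 0.23), 1.28 CPM in the 8 day 7 mice (SD 0.37) and 0.85 CPM in the 7 day 14 mice (SD 0.43), and the lowest day 7 mouse (0.90 CPM) exceeded the highest baseline mouse (0.86 CPM). Its log2 fold change was 1.36 at day 7 (SE 0.31, adjusted p = 0.00305) and 0.75 at day 14 (adjusted p = 0.331). *Hgf* had 188 counts in all mice together, so the separation of day 7 from baseline rests on few counts per mouse. With a mean of at least 20 counts or with only the mice compared, *Hgf* was not tested. *Plau*, the urokinase that can cleave HGF to its active form, rose by 0.80 at day 7 (adjusted p = 2.65e-05) and by 0.72 at day 14 (adjusted p = 0.00104), and was the 1 gene of the lists that passed at day 14. *Spint1*, an inhibitor of HGF-activating proteases, fell by 0.35 on the log2 scale at day 7 (adjusted p = 7.47e-04), where total count scaling gave 0.10. Fibroblasts are a known source of HGF, and 9 fibroblast markers summed to between 335 and 669 CPM in baseline mice, between 639 and 1202 in day 7 mice and between 541 and 764 in day 14 mice (day 7 against baseline 0.97 on the log2 scale, adjusted p = 0.00373, exact permutation test). Its part in the level of *Hgf* was not tested.

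Of the 8 genes listed for the shedding of growth factors, which were Adam genes and the rhomboid-like *Rhbdf1* and *Rhbdf2*, 3 rose at day 7 and 0 fell. *Adam10* rose by 0.26 (adjusted p = 0.00593) and *Adam17*, the main sheddase of several EGFR ligands, by 0.27 (adjusted p = 0.00836). *Adam12* rose by 1.68 (SE 0.41, adjusted p = 0.00510), from a range of 0 to 2.34 CPM in baseline mice to one of 1.25 to 3.74 CPM in day 7 mice, with 3 of 8 day 7 mice above every baseline mouse. With a mean of at least 20 counts *Adam12* was not tested.

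Between the receptors and Ras, 15 of 16 adaptor and exchange factor genes were tested, and at day 7 0 rose and 4 fell. *Ptpn11*, the phosphatase Shp2 that links receptors to Ras, fell by 0.24 on the log2 scale (SE 0.05, adjusted p = 0.00118), and its 8 day 7 mice, at 46.5 to 48.9 CPM, were all below the baseline range of 51.0 to 63.6. It was picked for a small adjusted p, and the share of all genes separated in this way was not determined. *Sos2*, a Ras exchange factor, fell by 0.27 (adjusted p = 0.00909) and *Rapgef1*, an exchange factor of Rap proteins, fell by 0.27 (adjusted p = 0.0276). These values turned to 0.21, 0.18 and 0.18 with total count scaling, and the call of *Rapgef1* was lost when that total left out the 20 most abundant genes (adjusted p = 0.174). Of 9 RasGAPs, which return Ras to its GDP-bound form, 0 passed in edgeR, the smallest adjusted p being 0.0624 for *Rasal2* (log2 fold change -0.22).

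Of 13 other small GTPases of the Ras family, 1 rose and 2 fell at day 7. *Rap1a* rose by 0.18 (adjusted p = 0.0126), *Rala* fell by 0.23 (adjusted p = 0.0128) and *Rheb*, the activator of mTORC1, fell by 0.23 (adjusted p = 0.0409) on the log2 scale; the last pair turned to 0.23 and 0.22 with total count scaling. Both calls were lost when that total left out the 20 most abundant genes (adjusted p = 0.0777 for *Rala* and 0.104 for *Rheb*), and that of *Rheb* also without the filter (0.0793) and with only the mice compared (0.0501). Of 11 kinases and scaffolds of the Raf, MEK and ERK cascade, 1 rose and 2 fell. *Pebp1*, which encodes the Raf kinase inhibitor protein, rose by 0.37 (SE 0.08, adjusted p = 0.00151), with 8 of 8 day 7 mice above every baseline mouse. *Braf* fell by 0.29 (SE 0.07, adjusted p = 0.00262) and *Map2k2*, which encodes MEK2, by 0.25 (SE 0.06, adjusted p = 0.00501). For each of these, 8 of 8 day 7 mice were below every baseline mouse. With total count scaling *Braf* turned to 0.16 and *Map2k2* to 0.20. *Pebp1*, *Braf* and *Map2k2* were picked for a small adjusted p, and how many of all genes are separated in this way was not determined.

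Downstream, 18 of 25 other attenuators of the route were tested, and 3 rose and 1 fell at day 7. The Sprouty-related inhibitor *Spred1* rose by 0.46 (SE 0.11, adjusted p = 0.00331), its relative *Spred2* by 0.71 (SE 0.24, adjusted p = 0.0348) and the cytokine signaling inhibitor *Socs3* by 0.58 (SE 0.18, adjusted p = 0.0209). *Dusp8*, a MAP kinase phosphatase that acts mainly on JNK and p38, fell by 0.65 (SE 0.12, adjusted p = 5.46e-04) and was the 1 of the 11 genes that stayed below 0 with total count scaling (-0.19). Of 11 tested transcripts known to respond to ERK, 3 rose and 0 fell at day 7, namely *Spred1* and *Spred2* again and the ETS factor *Etv5* (0.61, SE 0.21, adjusted p = 0.0431). The call of *Etv5* was lost without the sex covariate (adjusted p = 0.0929), without the filter (0.0541) and with only the mice compared (0.0706), and that of *Spred2* with only the mice compared (0.0522). *Spry4* thus fell while *Spred1* and *Spred2* rose, and *Dusp6* and *Spry2* passed in neither direction.

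**Figure D5:**
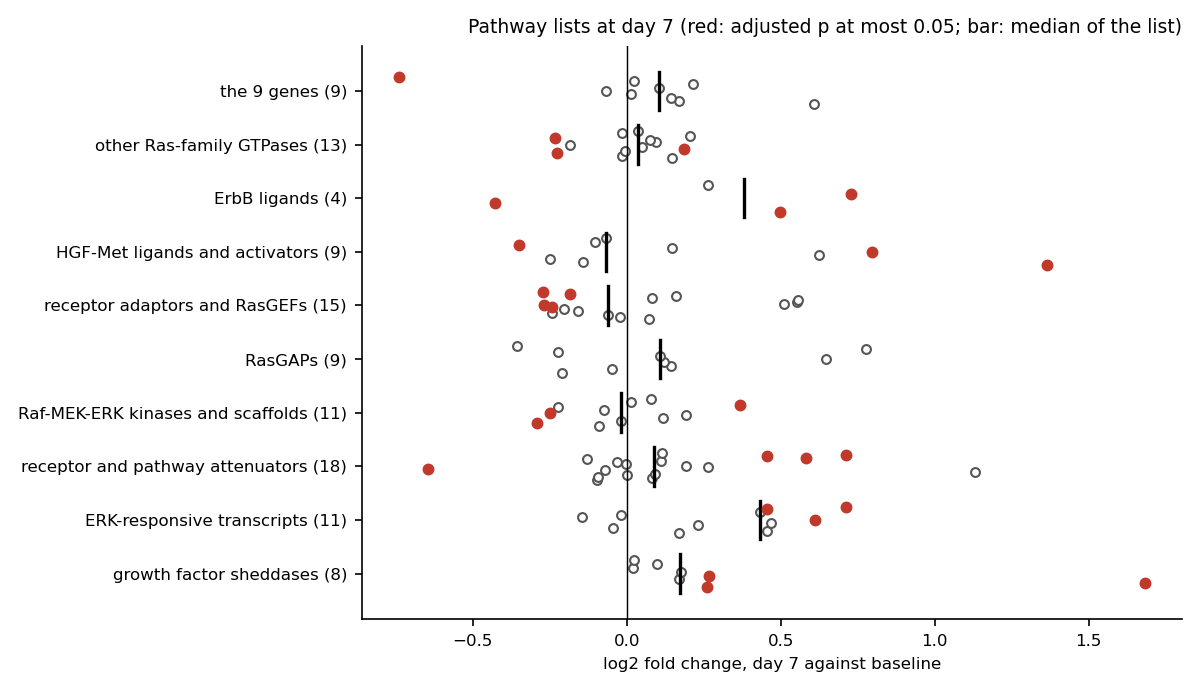
Log2 fold change at day 7 against baseline (horizontal axis) of each tested gene of the 9 members and of the 9 pathway lists (rows, number tested in brackets); red dots passed at an adjusted p of at most 0.05, open dots did not, and the black bar is the list's median. *Spred1* and *Spred2* stand in 2 lists. *Hgf* (1.36) and *Adam12* (1.68) lie farthest to the right, and *Spry4* (-0.74) farthest to the left.

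Markers of several cell types also differed between time points. Which cell types carry the receptors cannot be told from bulk tissue. Sums of 4 of 12 marker lists passed at day 7 against baseline by exact permutation tests adjusted over 36 tests: acinar was lower by 0.70 on the log2 scale (adjusted p = 0.00373), and fibroblast, macrophage and islet were higher by 0.97, 0.91 and 1.04 (adjusted p = 0.00373, 0.0232 and 0.0179). At day 14 acinar was still lower by 0.33 (adjusted p = 0.0168) and fibroblast higher by 0.49 (adjusted p = 0.0371) than at baseline. The sum of the ductal markers, 337 to 450 CPM at baseline and 339 to 513 at day 7, did not pass (adjusted p = 0.240), and that of the endothelial markers, 79.6 to 133 and 67.2 to 117 CPM, did not either (adjusted p = 0.367). As single genes in edgeR, 4 of 11 ductal markers rose at day 7 and 0 fell, while 0 of 7 endothelial markers rose and 1 fell. Of all genes 8.86% rose and 9.7% fell. In each of these 6 lists, 0 markers were without counts in every mouse of a group. The part of these shifts in the level of *Spry4* and of the other 8 genes was not tested.

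Between the sexes, 0 of the 9 genes passed over all time points in edgeR, where 0.574% of all genes did, and 0 had an unadjusted p under 0.05. The largest difference was 0.25 for *Dusp6*, higher in males (95% interval -0.18 to 0.67, adjusted p = 0.824). The interaction of sex with time was passed by 0 of the 9 genes in edgeR, both at day 7 (0.0082% of all genes passed) and at day 14 (0% passed). At an unadjusted p under 0.05 the interaction gave *Met* at day 7 (5.6% of all genes), and *Hras* and *Nras* at day 14 (3.77% of all genes). *Met* went from a mean of 39.6 CPM in baseline females to 36.1 at day 7, and from 33.3 to 42.2 in males (interaction 0.48 on the log2 scale, adjusted p = 0.532). *Hras* went from 12.9 to 15.6 CPM in females and from 14.4 to 13.1 in males between baseline and day 14 (interaction -0.41), and *Nras* from 15.3 to 20.0 and from 17.4 to 17.5 (interaction -0.38). Neither passed, and with 3 to 4 mice per sex and time point these means rest on few animals.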

How the data were processed

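RNA-seq gene counts of 23 mice were used: 8 at baseline, 8 at day 7 and 7 at day 14 post-injury, the groups being those of the labels. The files deposited by the authors hold whole-number counts, 1 per gene symbol. According to the methods and the submitters' processing notes, the authors examined paired 75-base reads with FastQC, trimmed them with Trim Galore and cutadapt, aligned them to mm10 with STAR 2.5.2a and counted uniquely mapped fragments with featureCounts; its version, annotation and strand setting are not given in the sources used here. Unique mapping can lower counts of genes with near-identical copies. The study left out 1 day 14 female for its mapping rate; it was not analysed here. Total counts of 7059890 to 9567446 per mouse set the precision, and few counts per mouse widen the errors of the feedback genes.

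In R 4.3.3, edgeR 4.0.16 with limma 3.58.1 tested all genes kept by filterByExpr (12195), with TMM scaling, glmQLFit (robust = TRUE) and glmQLFTest, in 1 fit over the 23 mice that held sex as a covariate. P-values were adjusted over all genes with the Benjamini-Hochberg method. A gene passed with an adjusted p no higher than 0.05, and a DEG also had a fold change of 1.5 or more. Sexes were compared with the time point as a covariate, and the interaction in a fit of sex by time point. SEs and 95% intervals of log2 fold changes were derived from the test and restate it. CPM used TMM-scaled library sizes, log2 CPM a prior count of 2, and levels per length the exon length of GENCODE vM21. Counting error is the Poisson spread of the counts and covers counting only. Ratios used counts plus 0.5 and were tested by enumerating every split of the mice (exact permutation, two-sided), adjusted over 9 tests; sums of 12 marker lists were tested alike, adjusted over 36. No replicates agreed within sampling noise (77 pairs of mice of 1 group, chi-square per degree of freedom 4.06 to 34.5). The fits were tested on simulated data. Python 3.11.15 with pandas 2.3.3 and matplotlib 3.10.9 served for annotation and figures.

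The 9 genes, the 9 pathway lists and the marker lists were chosen with earlier results of these data known. The examples named from a list were among those with the smallest adjusted p at day 7 or day 14 of the genes that passed, at most 3 a list (where none passed, the gene with the smallest); *Tgfa*, *Areg* and *Ereg* were named after their values were seen. Genes most like *Hras*, *Nras* and *Spry4* were the 3 with the highest r.

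Other settings differed from these in 1 choice each: DESeq2 1.42.0; its size factors in edgeR; total count scaling, also without the 20 most abundant genes; no filter except 1 count in any mouse; a mean of at least 20 counts; only the mice compared; no sex covariate; the mapping rate as a covariate; each sex alone and a pseudocount of 2 for ratios; and leaving out each mouse in turn.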

Additional observations from a re-analysis of the deposited data

Results flagged for a closer look

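In 36 sets of values (9 genes and 3 ratios in 3 groups), 3 had a highest or lowest mouse separated from the rest by more than Dixon's 95% critical value, where chance flags about 1 set in 20. *Dusp6* in day 7 mouse 9 was at 1.52 log2 CPM, the next lowest day 7 mouse at 2.43. *Egfr* in day 7 mouse 14 was at 5.24 log2 CPM, the next highest at 4.88. The log2 ratio of *Hras* to *Nras* in day 14 mouse 21 was -0.88, the next lowest at -0.43. None of the 9 genes had a sex by time interaction that passed.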

How the results depend on the processing

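No paired analysis was possible because every mouse was measured at 1 time point and no mouse number occurs in more than 1 group.

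Of the 9 genes, 1 passed at day 7 with TMM, 8 with total count scaling, 3 when that total left out the 20 most abundant genes (*Nras*, *Egfr*, *Spry4*), 0 with a mean of at least 20 counts, where *Spry4* is not tested, and 0 with the mapping rate as a covariate. Total count scaling gave 4 at day 14 against baseline and 3 against day 7. Of all genes, 9336, 3034 and 4107 passed in the 3 comparisons with total count scaling; the day 7 ones split into 9272 higher and 64 lower, against 1081 and 1183 with TMM and 1885 and 768 when the total left out the 20 most abundant genes. The mapping rate left 153 at day 7 and 5 at day 14, fitting only the mice compared gave 306 at day 14, DESeq2 335 at day 14 against day 7, and the fold change threshold 626, 96 and 46. Most baseline mapping rates lay below all day 7 and day 14 ones, so the fit with the mapping rate can hardly separate it from the time point. The interaction gave 3 of the 9 genes at an unadjusted p under 0.05. With total count scaling 7, 4 and 5 marker lists passed. The causes were not tested, apart from the shift of all genes with total count scaling.

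Signs turned for values that had not passed. With total count scaling these were *Hras* at 0.38 (day 7), *Erbb2* at 0.14 (day 14 against baseline), and *Hras* at -0.11, *Erbb3* at -0.20 and *Spry2* at -0.23 (day 14 against day 7). When the total left out the 20 most abundant genes, *Hras* was 0.0064 at day 7, and *Erbb3* -0.020 and *Spry2* -0.051 at day 14 against day 7. With the mapping rate as a covariate, *Nras* was -0.014 at day 7, *Hras* -0.050 and *Erbb2* 0.057 at day 14 against baseline, and *Nras* 0.014, *Erbb3* -0.013 and *Spry2* -0.073 at day 14 against day 7. In females alone, the day 14 difference from baseline was -0.056 for *Egfr* to *Erbb3* and -0.21 for *Spry4* to *Spry2*.

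Leaving out 1 mouse at a time, 0 to 3 of the 9 genes passed at day 7, 0 at day 14 against baseline and 0 to 1 at day 14 against day 7. Of all genes 1903 to 2458, 98 (without day 14 mouse 19) to 222 and 81 to 230 passed, the last count being 101 or less without day 7 mouse 14 or 15 or day 14 mouse 22, 23 or 24. Of marker lists 4 to 6, 1 to 3 and 2 to 4 passed, and 1 at day 14 without baseline mouse 2, 6, 7 or 8 or day 14 mouse 18, 19 or 22. At day 7 the log2 fold change ran from -0.070 to 0.076 for *Erbb3* and -0.083 to 0.116 for *Spry2*. At day 14 against baseline it ran from -0.052 to 0.131 for *Spry2* and -0.021 to 0.243 for *Spry4*. At day 14 against day 7 it ran from -0.089 to 0.014 for *Nras*, -0.116 to 0.020 for *Egfr*, -0.014 to 0.118 for *Erbb3*, -0.077 to 0.014 for *Met* and -0.067 to 0.113 for *Spry2*. The difference in log2 ratio of *Hras* to *Nras* at day 7 ran from -0.317 to -0.221, that of *Egfr* to *Erbb3* at day 14 from -0.037 to 0.091, and that of *Spry4* to *Spry2* from -0.991 to -0.556 (day 7), -0.147 to 0.288 (day 14) and 0.668 to 1.02 (day 14 against day 7). At 7 to 29 counts a mouse, counting error is a large part of the spread of *Spry4*.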
